A study of Mus musculus with 8 samples.

Results

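The 8 formative epiblast transcription factors Otx2, Pou3f1, Sox3, Sox11, Zic2, Sall2, Tcf15 and Foxd3 were taken by symbol from 52636 counted Ensembl genes, and all 8 passed the low-count filter. RNA-seq measured their transcripts in E14 cells, a mouse embryonic stem cell line from the blastocyst, and HiChIP measured contacts between sites bound by RNA polymerase II. The groups were KLF4-KO cells, which lack the zinc finger factor KLF4, with 2 RNA-seq libraries (KO library B and KO library F), and unmodified WT cells with 2 libraries (WT replicate 1 and WT replicate 2). Loops came as 1 pooled file per genotype. The labels give all samples 15% serum on gelatin, in one protocol with 10 ng/mL LIF, 1 µM of the MEK inhibitor PD0325901 and 3 µM of the GSK inhibitor CHIR99021, and in the other with 1000 U/mL LIF. No other allele or agent is named for either genotype, and no source used here gives whether the KO libraries come from 1 edited clone.

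Formative pluripotency lies between the naive state of the preimplantation epiblast and the primed state that responds to lineage signals. On leaving the naive state, mouse epiblast cells lower factors such as TFCP2L1 and raise OTX2 and the POU factor OCT6 (Pou3f1), which act with OCT4 at newly used enhancers, while FGF-ERK signalling drives the change. SOX3, SOX11, ZIC2 and FOXD3 serve again in the neural plate or neural crest, and TCF15 in somites.

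Each library held 8287497 to 9762190 counts in genes. Klf4 had 0 counts in both KO libraries and 2882 and 2421 in the WT libraries. None of 5 pluripotent stem cell markers passed the edgeR threshold, by edgeR (0 at an unadjusted p of 0.05), DESeq2 or limma voom, and Pou5f1 stood at 1652 ± 151 CPM in KO and 1604 ± 577 CPM in WT (SD, n = 2 each). Chromosome 14, which carries Otx2, Zic2 and Sall2, had a median log2 fold change of -0.63 over 466 tested genes, while the 19 others apart from Y ranged from -0.10 to 0.20. On chromosome Y, which carries none of the 8 factors, 80% of 5 tested genes were called lower by edgeR, and its share of PETs in the HiChIP pools was 0.0144% in KO and 0.259% in WT. CPM are counts scaled to a common library size after TMM normalisation.

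Otx2, Sox11, Pou3f1, Tcf15 and Zic2 rose in KO cells, Sox3 was 3.03-fold higher without passing the threshold, and neither Foxd3 nor Sall2 passed it. Of the 8 factors 5 were called, all higher, where 8.30% of 15517 tested genes were called in either direction, 2.96% higher and 5.34% lower (edgeR quasi-likelihood test with Benjamini-Hochberg adjustment, FDR 0.05). DESeq2 and limma voom also called 5 higher and 0 lower, and at an unadjusted p of 0.05 edgeR had 6 higher and 0 lower. Both KO libraries lay above both WT libraries for 6 factors and below them for Sall2, which holds for 26.0% and 27.5% of tested genes. Median log2 fold change was 1.82 over the 8 factors and -0.0015 over all tested genes. Without the low-count filter none of the 5 calls held (edgeR FDR 0.073 to 0.15), at nearly the same fold changes. With bulk RNA, more cells with a transcript and more transcript per cell cannot be told apart. The p-values rest on the spread between 2 libraries per genotype, which the labels call biological replicates. In edgeR this spread is drawn toward that of other genes, with 2 residual and a median of 6.29 prior degrees of freedom.

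**Figure D1:**
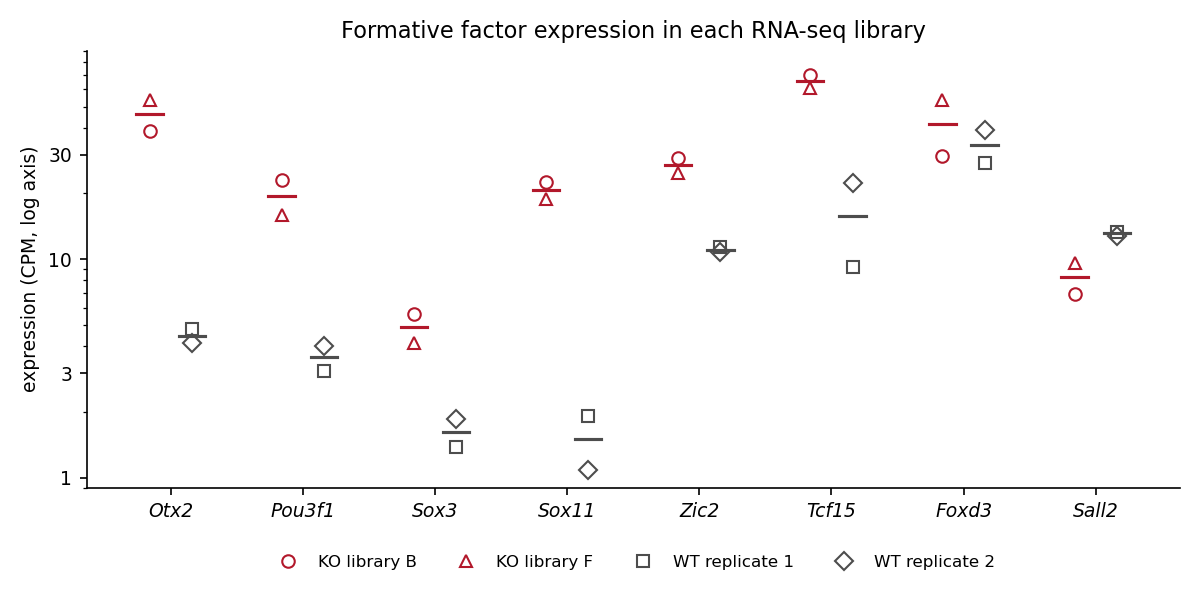
Expression of the 8 factors in each library, in CPM on a log axis, with KO libraries left of WT libraries and bars at the mean of each genotype. The KO points lie above the WT points for Otx2, Pou3f1, Sox3, Sox11, Zic2 and Tcf15, overlap them for Foxd3 and lie below them for Sall2.

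Otx2 (ENSMUSG00000021848, chromosome 14, 48656781 to 48667644, mm10) encodes the homeobox factor that directs the exit from the naive state in mouse cells. It had 324 counts in KO library B and 454 in KO library F, against 45 in WT replicate 1 and 38 in WT replicate 2. These are 38.8 and 53.8 CPM in KO and 4.78 and 4.13 CPM in WT, so the genotypes were far apart and each pair of libraries lay close together. The mean was 46.3 ± 10.6 CPM in KO and 4.46 ± 0.46 CPM in WT (SD, n = 2 each). Otx2 rose 10.4-fold (log2 fold change 3.37, SE 0.33, 95% interval 2.61 to 4.14, edgeR FDR 0.0025). Of the 466 tested genes of chromosome 14, 6 had a larger log2 fold change.

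Sox11 (ENSMUSG00000063632, chromosome 12, 27334268 to 27342718), a SOX factor of the group that also holds Sox4 and Sox12, had the largest fold change of the 8 factors. It had 189 and 159 counts in the KO libraries and 18 and 10 counts in the WT libraries, or 22.6 and 18.8 CPM in KO and 1.91 and 1.09 CPM in WT. Every KO value was many times every WT value. Sox11 rose 13.8-fold (log2 fold change 3.77, SE 0.43, 95% interval 2.80 to 4.78, edgeR FDR 0.0038), and with 1 library left out the fold lay between 10.5 and 18.7.

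RefSeq promoter windows (GRCm38.p6, 250 bases before to 50 after a start) were at hand for 4 of the 8 factors, 8 windows in all, and the 4 shown, 1 per gene, are those that hold a CACCC box. The other 4, which are 3 starts of Otx2 and another start of Sall2, hold 0 of them. The window shown for Sox11 lies in an RNA polymerase II anchor in both HiChIP pools, and that of Sall2 in the KO pool alone. Capitals mark CACCC on either strand (GGGTG on the other), the core of sites that KLF and SP factors can bind.
Sox11, chr12:27342669-27342968, minus strand: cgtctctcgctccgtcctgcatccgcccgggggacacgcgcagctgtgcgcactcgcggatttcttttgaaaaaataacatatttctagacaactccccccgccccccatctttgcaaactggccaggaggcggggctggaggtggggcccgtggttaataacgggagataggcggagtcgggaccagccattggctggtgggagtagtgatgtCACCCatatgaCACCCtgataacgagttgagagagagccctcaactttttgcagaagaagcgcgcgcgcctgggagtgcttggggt
Otx2, chr14:48662685-48662984, minus strand, the one of its 4 starts with the most such boxes: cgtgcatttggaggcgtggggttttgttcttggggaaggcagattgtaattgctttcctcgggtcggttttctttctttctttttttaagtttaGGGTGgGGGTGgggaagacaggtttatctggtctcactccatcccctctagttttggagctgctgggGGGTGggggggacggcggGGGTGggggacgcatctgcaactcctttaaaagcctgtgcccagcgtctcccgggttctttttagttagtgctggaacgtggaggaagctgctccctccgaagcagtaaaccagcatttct
Sall2, chr14:52316274-52316573, minus strand: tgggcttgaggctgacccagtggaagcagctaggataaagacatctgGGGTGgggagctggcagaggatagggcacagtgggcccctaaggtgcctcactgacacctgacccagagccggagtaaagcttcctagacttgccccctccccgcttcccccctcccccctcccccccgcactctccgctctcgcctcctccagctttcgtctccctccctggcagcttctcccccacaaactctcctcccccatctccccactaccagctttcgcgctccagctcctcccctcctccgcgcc
Foxd3, chr4:99656049-99656348, plus strand: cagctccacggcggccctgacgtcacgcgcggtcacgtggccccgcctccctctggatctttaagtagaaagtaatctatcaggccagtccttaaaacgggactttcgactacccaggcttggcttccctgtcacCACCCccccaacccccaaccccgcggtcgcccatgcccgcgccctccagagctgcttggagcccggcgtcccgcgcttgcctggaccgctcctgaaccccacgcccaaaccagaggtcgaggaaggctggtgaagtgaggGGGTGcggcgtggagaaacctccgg
CACCC boxes stood in 4 of the 8 windows, against 57.5% of 32851 promoters of that length, and the 4 shown held 2, 4, 1 and 2 of them. The longer KLF and SP form GGGNGNGGC, which can include a CACCC box, occurred in 1 of 8 windows, that of Foxd3, and in 25.8% of all promoters. Both strands were searched. The 8 windows are not independent, since 4 are starts of Otx2, among them a pair that shares bases. The OTX site GGATTA was in 1 of 8, another start of Otx2, and in 7.06% of all. The octamer ATGCAAAT was in 0 of 8 and 1.74% of all, and the SOX core ACAANG in 0 of 8 and 41.2% of all.

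Pou3f1 (ENSMUSG00000090125, chromosome 4, 124657646 to 124660655) had 193 and 134 counts in KO and 29 and 37 counts in WT. Its levels were 23.1 and 15.9 CPM in the KO libraries and 3.08 and 4.02 CPM in the WT libraries, with no overlap. Pou3f1 rose 5.49-fold (log2 fold change 2.45, SE 0.39, 95% interval 1.56 to 3.35, edgeR FDR 0.010).

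Tcf15 (ENSMUSG00000068079, chromosome 2, 152143056 to 152149097), a basic helix-loop-helix factor that primes mouse stem cells for differentiation, had 583 and 515 counts in KO and 87 and 206 counts in WT. The KO libraries agreed closely at 69.8 and 61.0 CPM, while the WT libraries stood 2.42-fold apart at 9.24 and 22.4 CPM. Tcf15 rose 4.13-fold (log2 fold change 2.05, SE 0.41, 95% interval 1.11 to 2.98, edgeR FDR 0.022). The size of the rise depends on the WT library, with a fold of 2.90 without WT replicate 1 and 6.91 without WT replicate 2.

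Zic2 (ENSMUSG00000061524, chromosome 14, 122475384 to 122480328), a zinc finger factor of forebrain development, had 242 and 210 counts in KO and 107 and 99 counts in WT. The libraries of each genotype lay close together, at 29.0 and 24.9 CPM in KO and 11.4 and 10.8 CPM in WT, with no overlap. Zic2 rose 2.43-fold (log2 fold change 1.28, SE 0.30, 95% interval 0.60 to 1.97, edgeR FDR 0.037). This call was lost without KO library B (edgeR FDR 0.16), KO library F (0.062) or WT replicate 2 (0.057), at log2 fold changes between 1.17 and 1.40.

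Sox3 (ENSMUSG00000045179, chromosome X, 60891366 to 60893430), a close relative of Sox2, had 47 and 35 counts in KO and 13 and 17 counts in WT. The levels of 5.63 and 4.15 CPM in KO did not overlap the 1.38 and 1.85 CPM in WT. The log2 fold change was 1.59 (SE 0.50, 95% interval 0.46 to 2.74) with an unadjusted p of 0.012 and an edgeR FDR of 0.089, and the adjusted p was 0.14 with DESeq2 and 0.093 with limma voom.

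Foxd3 (ENSMUSG00000067261, chromosome 4, 99656299 to 99658671), a forkhead factor needed in the mouse epiblast, had 249 and 451 counts in KO and 259 and 360 counts in WT. Its levels overlapped, with 29.8 and 53.4 CPM in KO and 27.5 and 39.2 CPM in WT. The log2 fold change was 0.32 (SE 0.35, 95% interval -0.48 to 1.12, edgeR FDR 0.62), an interval that leaves room for a 2-fold rise but not for the change of Otx2 or Sox11. Its sign turned without KO library F, at a log2 fold change of -0.15.

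Sall2 (ENSMUSG00000049532, chromosome 14, 52311177 to 52328670), a zinc finger factor of the spalt family, was the one factor with lower values in KO. It had 58 and 81 counts in KO and 126 and 118 counts in WT, or 6.95 and 9.59 CPM in KO and 13.4 and 12.8 CPM in WT. The log2 fold change was -0.66 (SE 0.35, 95% interval -1.47 to 0.14, edgeR FDR 0.29), near the -0.63 of its chromosome.

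**Figure D2:**
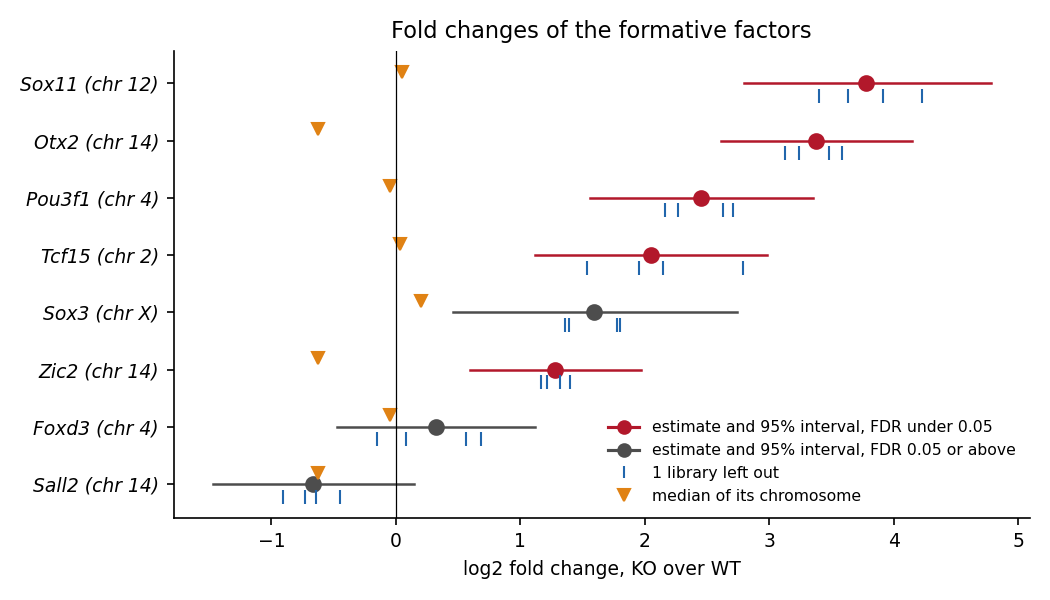
Log2 fold changes, KO over WT, with 95% intervals, estimates with 1 library left out (blue ticks) and the median of each factor's chromosome (orange). Sox11 at 3.77 and Otx2 at 3.37 lie farthest right, and Sall2 at -0.66 sits at the median of chromosome 14.

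The factors were next set against their genomic neighbours, since expression along chromosome 14 was shifted. Among 53 tested genes that start within 5 Mb of Otx2, 0 were called higher and 4 lower by edgeR, with a median log2 fold change of -0.66, and Otx2 ranked 1 of them and itself. Around Zic2, the median over 24 genes was -1.19, with 9 called lower and 1 higher, its neighbour Zic5, the one gene there with a higher log2 fold change than Zic2. Around Sall2, it was -0.78 over 107 genes, of which 18 were called lower and 2 higher, Otx2 and Jph4, since the windows of Otx2 and Sall2 overlap. Relative to these medians, Otx2 was higher by 4.04, Zic2 by 2.47 and Sall2 by 0.12 on the log2 scale. On chromosome 14 as a whole, 17.6% of tested genes were called lower and 3.43% higher. Its share of PETs in the HiChIP pools was 2.71% in KO and 1.97% in WT. What lowers chromosome 14 was not tested, and loss of Klf4 and other differences between the cells cannot be told apart.

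Off chromosome 14, the local medians were close to 0. They were 0.04 over 115 genes around Pou3f1, -0.05 over 119 around Tcf15, -0.05 over 38 around Foxd3, 0.27 over 29 around Sox11 and 0.19 over 18 around Sox3. Relative to them, Sox11 was higher by 3.50, Pou3f1 by 2.41, Tcf15 by 2.09, Sox3 by 1.40 and Foxd3 by 0.37. No RefSeq gene overlaps the span of any of the 8 factors. Of the counted genes with an end within 10 kb, Zic5 rose with Zic2, whereas Pcca beside Zic2 (log2 fold change -0.86, edgeR FDR 0.11) and Mettl3 beside Sall2 (-0.67, edgeR FDR 0.18) were lower in KO without passing. The log2 fold change of 2610035F20Rik, a long noncoding gene beside Zic2, was 0.68 (edgeR FDR 0.58). Beside Pou3f1, the untested noncoding gene Gm2164 had 13 and 5 counts in KO and 0 in WT. Otx2os1 beside Otx2 had 0 counts in KO and 1 in WT.

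**Figure D3:**
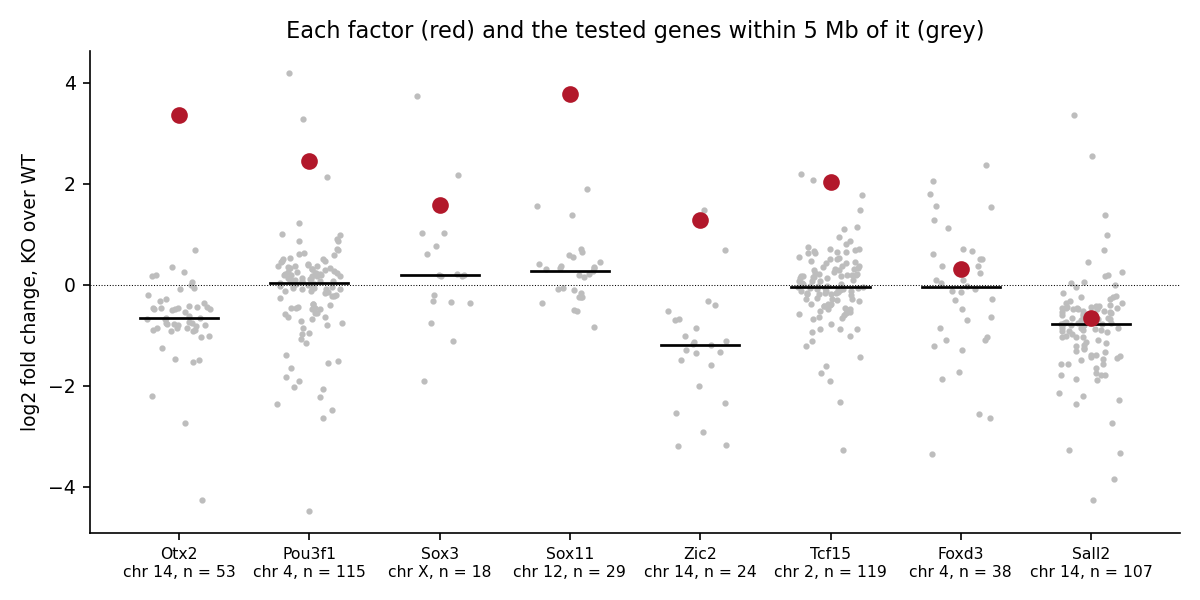
Log2 fold change, KO over WT, of each factor (red) and of the tested genes that start within 5 Mb (grey, median as a black bar). Otx2 and Zic2 stand above neighbours whose medians are -0.66 and -1.19, and Sall2 lies among its neighbours.

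Other genes of the formative state moved the same way in most called cases. Of 14 other formative and primed regulators, 8 rose, 1 fell and 5 did not pass (edgeR, median log2 fold change 1.38). Lef1, a partner of beta-catenin, had 302 and 145 counts in KO and 7 and 9 in WT (log2 fold change 4.93, edgeR FDR 0.0032). Foxp1, a forkhead gene, reached 56.1 ± 6.0 CPM in KO against 6.66 ± 0.80 CPM in WT (edgeR FDR 0.0023), and Grhl2, a grainyhead factor of epithelial enhancers, 26.0 ± 3.33 CPM against 2.84 ± 0.79 CPM (edgeR FDR 0.0039). Utf1, a chromatin-bound pluripotency factor, stood at 368.9 ± 0.31 CPM in KO and 70.8 ± 26.1 CPM in WT (edgeR FDR 0.0052). The called fall was Nkx1-2, a homeobox gene of the caudal epiblast, with 0 counts in both KO libraries and 42 and 27 in WT. That is at least 20.7-fold lower against 3 counts over the KO libraries.

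Among 14 formative effector genes, 6 of 11 tested rose and 0 fell (edgeR, 0 lower at an unadjusted p of 0.05, DESeq2 and limma voom 0, median log2 fold change 1.77). Ccnd2, a cyclin gene, had 79 and 76 counts in KO and 4 and 3 in WT (log2 fold change 4.57, edgeR FDR 0.0038). The de novo DNA methyltransferase genes Dnmt3a and Dnmt3b stood at 256 ± 50.7 and 227 ± 3.00 CPM in KO, against 47.9 ± 10.6 and 66.5 ± 14.2 CPM in WT (edgeR FDR 0.0038 and 0.0077). Enpp3, an ectonucleotidase gene, was 7.13-fold higher (edgeR FDR 0.0052). The classical formative ligand gene Fgf5 was barely detected, with 4 and 8 counts in KO and 0 in WT, and was not tested. That is at least 4.42-fold higher against 3 counts over the WT libraries. Cdh2, which encodes N-cadherin, was level at 4.88 ± 0.80 CPM in KO and 4.93 ± 1.44 CPM in WT (SD, n = 2 each).

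Of 12 naive pluripotency factors, 2 fell, 0 rose and 10 did not pass (edgeR, median log2 fold change -0.11). Their summed level was 2898 to 3219 CPM in KO libraries and 3750 to 4279 CPM in WT libraries, without overlap. Genotypes do not overlap for 53.5% of tested genes. Tfcp2l1 had the largest drop in CPM of the 12, and several of the others had KO means at or above WT. At an unadjusted p of 0.05 edgeR had 1 higher, Gbx2, a homeobox gene (log2 fold change 1.60, edgeR FDR 0.060), and DESeq2 called 1 higher and limma voom 0. Tfcp2l1 stood at 239 ± 50.0 CPM in KO and 891 ± 241 CPM in WT (edgeR FDR 0.011). Tbx3, a T-box factor, was at 148 ± 31.0 CPM in KO and 339 ± 56.8 CPM in WT (edgeR FDR 0.032), a call lost without KO library B (0.29) or KO library F (0.096). Nr5a2, a nuclear receptor gene, was at 32.8 ± 0.26 CPM in KO and 66.0 ± 17.2 CPM in WT (edgeR FDR 0.063). Stat3, the effector of LIF signalling, was level at 106 ± 4.38 CPM in KO and 104 ± 12.2 CPM in WT.

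Within the factors' own families, the change differed between paralogs. Of 22 paralogs, 10 were tested, 3 rose and 0 fell (edgeR, 1 lower at an unadjusted p of 0.05, DESeq2 and limma voom 0, median log2 fold change 0.29). Sox4, of the Sox11 group, had 438 and 647 counts in KO and 80 and 50 counts in WT (log2 fold change 3.21, edgeR FDR 0.0036). Sox12, of the same group, was at 77.3 ± 7.10 CPM in KO and 60.0 ± 12.2 CPM in WT (log2 fold change 0.36, edgeR FDR 0.44). Zic5, which lies 9726 bp from Zic2, had 205 and 221 counts in KO and 97 and 73 in WT (2.78-fold, edgeR FDR 0.028, and 0.057 without KO library F). Zic1 and Zic4 had at most 3 counts in any library. Sox2 and Sox1, of the Sox3 group, had log2 fold changes of 0.16 (edgeR FDR 0.74) and -0.55 (edgeR FDR 0.45).

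Among the Sall2 relatives, none passed. Log2 fold changes were 0.22 for Sall4, 0.52 for Sall1 and -1.35 for Sall3, with edgeR FDR of 0.62, 0.35 and 0.12. With 1 library left out, the Sall3 value ranged from -0.86 without WT replicate 1 to -2.02 without KO library F. The relatives of Otx2, Pou3f1 and Foxd3 were not tested, with at most 14 counts in any library. Foxd1 had 0 and 1 counts in KO and 8 and 14 in WT. For Scx, a relative of Tcf15, the log2 fold change was -0.20 (edgeR FDR 0.88).

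**Figure D4:**
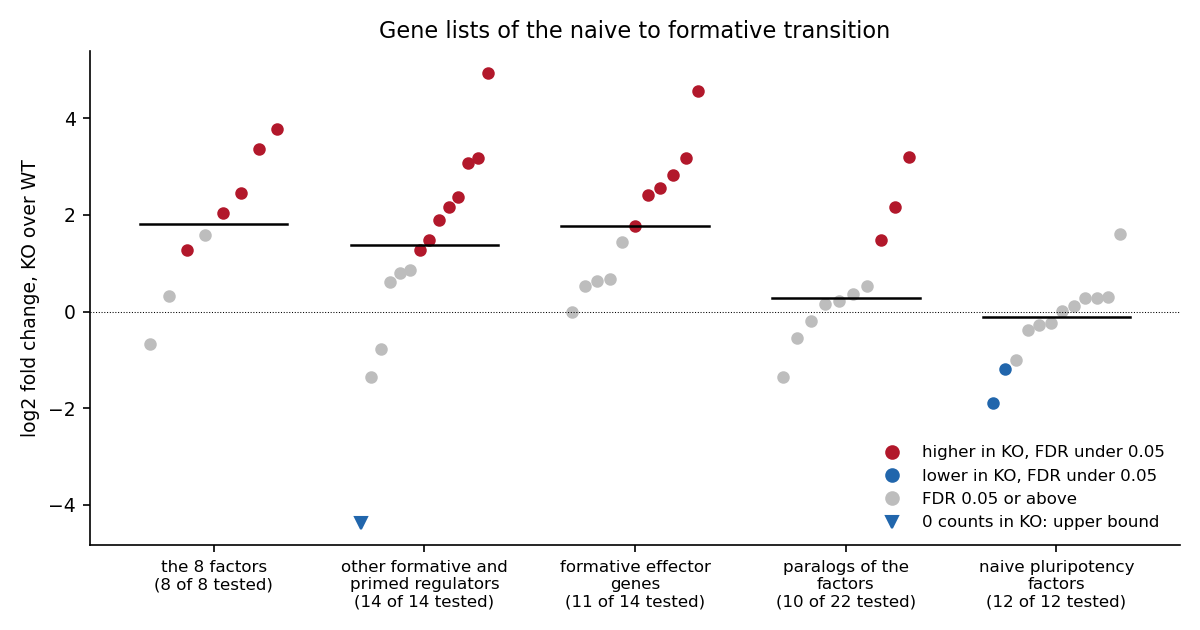
Log2 fold change, KO over WT, of each tested gene in the 5 lists, with the list median as a bar. Called genes lie above 0 in the formative lists apart from Nkx1-2, drawn at its bound, and below 0 among naive factors. The regulator and paralog lists share some genes, among them Zic5 and Sall3.

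Several of the 8 factors also mark later lineages, so markers of other cell types were read beside them. Of 12 neural ectoderm markers, 5 were tested, with Pax6 higher (55 and 26 counts in KO, 1 and 0 in WT) and Nes lower (70 and 50 counts in KO, 258 and 294 in WT). Their summed level was 37.1 to 58.3 CPM in KO libraries and 54.3 to 60.7 CPM in WT libraries, and Dcx was at 0 in all 4. The 7 mesendoderm markers summed to 6.04 to 7.43 CPM in KO and 7.01 to 11.1 CPM in WT, with Gsc lower (edgeR FDR 0.025, and 0.081 without WT replicate 2). The 7 primitive endoderm markers summed to 6.63 to 9.58 CPM in KO and 7.65 to 8.70 CPM in WT, with Afp at 0. Gata6 was higher (edgeR FDR 0.026, lost when either KO library or WT replicate 2 was left out). Gata4, on chromosome 14, went the other way, with 17 and 4 counts in KO and 37 and 48 in WT. Its log2 fold change was -1.86 (edgeR unadjusted p 0.023, FDR 0.13), which did not pass. The sum of this list thus joins changes in opposite directions. The 7 fibroblast and feeder markers summed to 10.5 to 12.2 CPM in KO and 6.16 to 6.31 CPM in WT, mostly Thy1, with Lum and Postn at 0. What part these cells have in the result was not tested.

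As a description of likeness, the centred log2 CPM of each factor over the 4 libraries was compared with 12515 other named genes by Euclidean distance. Nearest to Otx2 were Cubn (0.19), Adam23 (0.24) and Zfp423 (0.26), and nearest to Sox11 were Map7d3 (0.39), Rgs16 (0.41) and Pdzd4 (0.43). For Pou3f1 they were Ly6h and R3hdml (0.067 each) and Raet1d (0.091), for Tcf15 Mgst1 (0.25), B3galt1 (0.30) and Tnfsf11 (0.33), and for Zic2 Best1 (0.055), Polr3gl (0.058) and Tcaf2 (0.067). For Sox3 they were Dusp9 (0.089) and Tdrkh (0.093), for Sall2 Pafah2 (0.015), Zfp553 (0.027) and Hmbox1 (0.067), and for Foxd3 Mmp28 (0.061), Mfap5 (0.11) and Bmp4 (0.13). Distances over 4 libraries rest on few values. The log2 CPM carry a prior count of 2, which shrinks differences between low counts. Cubn had a log2 fold change of 7.17 in the edgeR fit, against 3.37 for Otx2, and Ly6h and R3hdml shared one of 3.01.

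The loop files hold counts of paired-end tags (PETs) between anchors on the same chromosome, with 401726 PETs in KO and 35189 in WT, so the KO pool is 11.4 times deeper. Each pool is 1 file, so no test is possible, and intervals are exact 95% Poisson or binomial ones for counting error only. Where a gene had 0 PETs, the limit given is instead the rate that 3 PETs would make. Anchors overlapped the gene in 5 of 8 factors in the KO pool and in 3 of 8 in the WT pool. Of 14129 tested genes with a position, 73.3% were touched in KO and 51.2% in WT.

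Tcf15 had the most contacts of the 8 factors in both pools. It had 40 PETs in 17 pairs in KO and 11 PETs in 6 pairs in WT, or 9.96 per 100000 PETs in KO (95% interval 7.11 to 13.6) and 31.3 in WT (15.6 to 55.9). The ratio of 0.32 (95% interval 0.16 to 0.69) lies near the median of 0.38 over 1630 genes with at least 10 PETs in WT, of which 61.5% were at least 2-fold lower per 100000 PETs. Genes enter that set by their WT PETs, which by itself favours low ratios. Over the 6691 genes touched in both pools, the median was 0.51. The KO contacts gathered around the gene, with 7 PETs to a site 25.8 kb away, 6 to a site 0.15 kb from the gene, 6 within its own anchor and 4 to Csnk2a1, a kinase gene 72.7 kb away. In WT, 3 PETs fell within its own anchor, 3 ran to Trib3, a pseudokinase gene 194 kb away, and 2 to the site 26.7 kb away. Of 16 partner sites in KO and 5 in WT, 3 of each overlapped a partner in the other pool, among them Trib3 and Sox12, each joined by 1 PET in KO.

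Zic2 had 18 PETs in 11 pairs in KO and 0 in WT, or 4.48 per 100000 PETs in KO (95% interval 2.66 to 7.08). The WT pool is too shallow to show a difference, since its limit of 3 PETs is 8.53 per 100000, above the KO value, and 25.9% of tested genes were touched in KO alone. Within the KO pool, 4 PETs fell in its own anchor, 3 joined a site 23.6 kb away and 2 joined Zic5, the neighbour that rose with it. Sall2 had 13 PETs in 9 pairs in KO, 3.24 per 100000 (95% interval 1.72 to 5.53), and also 0 in WT. Its anchor covers the promoter shown above and was joined by 4 PETs to Chd8, a chromatin remodeller gene 52.0 kb away.

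Contacts of Pou3f1 and Sox11 were few. Pou3f1 had 2 PETs in KO and 3 in WT, all in pairs of 1 PET, to Grik3 and Nasp in KO and to Fhl3, Inpp5b and a site without a gene in WT. This is 0.50 per 100000 in KO (95% interval 0.060 to 1.80) and 8.53 in WT (1.76 to 24.9). The ratio was 0.058 (95% interval 0.0049 to 0.51), where genes touched in both pools had a median of 0.51. That set needs PETs in the shallow WT pool, which also favours low ratios. Sox11 had 4 PETs in KO and 1 in WT, and in both pools the anchor spanned its promoter. The ratio was 0.35 with a 95% interval of 0.035 to 17.3. Each of the 2 genes had more RNA in KO, and by its estimate neither had more PETs per 100000 there. For Sox11 that estimate rests on 1 WT PET, and its interval spans both directions.

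Otx2, Sox3 and Foxd3 were touched in neither pool, as were 22.9% of tested genes. For Otx2, whose RNA rose 10.4-fold, the limit of 3 PETs is 0.75 per 100000 in KO and 8.53 in WT. The nearest listed anchor lay 30830 bp from Otx2 in KO and 557 bp from it in WT. With the gene extended by 10 kb, Otx2 had 0 PETs in KO and 2 in WT. Those 2 PETs are 5.68 per 100000, below the limit of 3 PETs. For Foxd3, the nearest anchor lay 16080 bp away in KO and 56147 bp away in WT, and for Sox3 451165 and 2029007 bp.

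**Figure D5:**
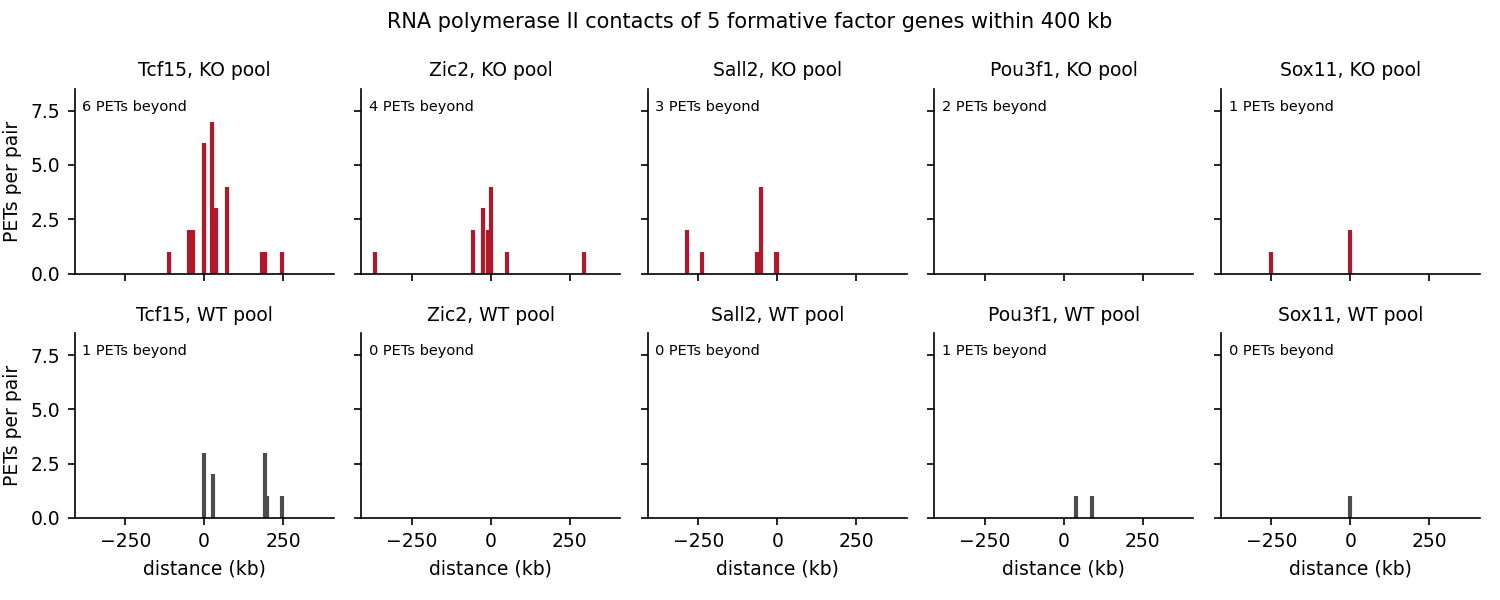
PETs per anchor pair against the distance in kb from the gene to the partner anchor, with the KO pool above the WT pool. Pairs beyond 400 kb are given as a count in each panel, and the bars are raw PETs from pools that differ 11.4-fold in depth. Tcf15 shows bars in both pools, Zic2 and Sall2 in KO alone.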

How the data were processed

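RNA-seq was analysed from gene counts and HiChIP from counts of PETs per anchor pair. The deposited counts are whole numbers, not normalised. The submitters' processing notes name HiC-Pro 2.11.4, HTSeq 0.9.1, HISAT2 2.1.0 and DESeq2 1.18.1, with build mm10. No source used here gives the annotation release, strand setting, loop caller or filters. Reads in no gene (37.2% to 40.5%), unaligned, ambiguous, low-quality and multiply aligned reads entered neither library sizes nor tests.

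Main test: edgeR 4.0.16 in R 4.3.3 (filterByExpr, TMM, quasi-likelihood F-test, genotype only, Benjamini-Hochberg over 15517 genes), checked on simulated counts. DESeq2 1.42.0, limma voom 3.58.1, other scalings and filters, and leaving out each library were alternatives. Anchors had to overlap a gene by 1 bp. Symbols matched 52403 of 52636 identifiers. Positions and promoters come from RefSeq GRCm38.p6, the build of the files. KO count files carry letters, so they have no replicate number.

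The factors, lists and tests were chosen with earlier results of these data known, and motifs and printed promoters after the files were seen. Named genes are the 8 factors, up to 4 genes of the smallest p per list, tested genes of the factors' families, genes overlapping a factor or starting within 10 kb of it, the 3 nearest profiles and the strongest loop partners. Stat3, Cdh2, Fgf5, Nkx1-2, Tcf7l1, Foxd1, Zic1, Zic4, Jph4, and neighbours with only their far end within 10 kb, were named besides, after their values were seen. A few genes that this rule covers are not reported here, while list counts and medians include every listed gene.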

Additional observations from a re-analysis of the deposited data

How the results depend on the processing

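Of 80 fits of the 8 factors under alternatives, 71 kept direction and side of the threshold. Without the low-count filter, which tests 27254 genes, edgeR called 0 of the 8 factors (6 at an unadjusted p of 0.05), 1 gene higher and 1 lower in all (4021 at an unadjusted p of 0.05), and 0 genes of the regulator, effector and paralog lists and 0 lower naive factors. With 1 library left out, 387 to 1151 genes were called higher and 618 to 1366 lower, the highest counts without WT replicate 1 and 505 higher and 1057 lower without WT replicate 2. Called factors numbered 4 or 5, and Foxd3 lay between -0.15 (without KO library F) and 0.68 on the log2 scale. Likewise 1 to 2 regulators were lower, 0 to 2 naive factors higher and 1 to 3 lower, and 0 to 1 paralogs lower. DESeq2 called 1 naive factor higher. The causes were not tested. A fit with 1 library left out has 1 library in that genotype, so its FDR holds no replication there. With pairs of at least 2 PETs, the factors held 49 of 77 PETs in KO and 8 of 15 in WT, where 1 factor was touched. With genes extended by 10 kb, 5 factors were touched in WT. Windows around starts could be placed for 4 factors. No paired analysis was possible because the KO columns carry no replicate numbers. Depth in the WT pool limits every statement on contacts.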
